A study of Mus musculus with 4 samples.

Results

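The subunits of respiratory complex I were followed in macrophages of injured young and aged mouse nerve. The members are the genes whose symbol is Nduf followed by a, ab, b, c, s or v and a number, and 37 of the 24028 genes in the deposited table have such a name. The rule uses names and no values, and all 37 had a mean of at least 1 FPKM (fragments per kilobase, corrected for sequencing depth) over the libraries, so all were tested. Each of the 4 libraries came from pooled female mice carrying 1 copy each of the reporters Cx3cr1-GFP and Ccr2-RFP, with cells sorted from sciatic nerve 3 days after nerve injury. The labels call the cells macrophages positive for CCR2 and Cx3cr1. Young animals were 3 months and aged animals 15 months old, with 2 libraries per age and 7 to 8 mice per time point, and uninjured nerve was not analysed here. The sources used here do not say how the animals were divided over the pools, so p-values measure the spread between these pools, which may be technical.

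Complex I is the entry point of the respiratory chain in the inner mitochondrial membrane. Its matrix arm oxidises NADH and passes the electrons along iron-sulfur clusters to ubiquinone, and its membrane arm pumps protons. The catalytic core is shared with bacteria and is built in part from mitochondrially encoded subunits, which were not analysed here, while the nuclear genes followed here encode the other core subunits and the accessory subunits around them. In inflammatory macrophages the complex is known for making superoxide when electrons run backwards through it.

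The libraries held 11489336 and 10765234 reads (young) and 8613360 and 9986706 reads (aged). As the smallest whole numbers that suit the 4 values, between 4 and 1191 reads fell on a subunit gene in a library. By these numbers, 11 of the 37 genes had fewer than 30 reads in at least 1 library. Macrophage markers were high in every library, with Lyz2, lysozyme, at 12267, 9886, 10484 and 7491 FPKM in young replicates 1 and 2 and aged replicates 1 and 2. In the same order, the reporter genes used for the label were at 276, 356, 345 and 399.9 FPKM (Ccr2) and at 18.02, 18.9, 16.1 and 19.8 FPKM (Cx3cr1). Where 4 values of a gene are given, they follow that order and are in FPKM. A difference is the aged mean minus the young mean of log2(FPKM + 1), with the standard error of limma's fit. In such sorted pools, fewer cells of a type and less RNA per cell cannot be told apart.

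A short stretch around the start codon recurred among the subunit genes. Among the motifs searched, all chosen after the values were seen, its share in the members exceeded that in tested genes by the most. The letters AAGATGGC, which resemble the binding site of the transcription factor YY1, were searched on both strands from 250 bases before to 50 bases after the start of transcription. RefSeq promoters (GRCm38.p6) were at hand for 33 members, and 7 of these held the letters (21.2%), against 5.53% of the 9098 tested genes with a promoter and 3.19% of all 27025 genes with one. In all 7 the match lay on the gene's own strand, with its first base between 23 and 39 bases after the start, and the ATG inside it was the start codon annotated by GENCODE M21. A match on the gene's strand between bases 20 and 40, a span set around the members' own matches, was found in 1.58% of the tested genes. This share and that of the members are thus no like comparison. Nor were the tested genes matched to the members for a start codon within the stretch searched. The 7 stretches of 30 bases follow, 5′ to 3′ on the strand of the gene, with the searched letters in capitals.
Ndufa3 (chr7:3617377-3617406, plus strand): cttgtcgccgccaagaacAAGATGGCcggg
Ndufa9 (chr6:126849104-126849133, minus strand): cgtgaggcattgtgggagAAGATGGCggcc
Ndufb8 (chr19:44555393-44555422, minus strand): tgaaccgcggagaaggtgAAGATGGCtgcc
Ndufc1 (chr3:51408922-51408951, minus strand): aggcggagcctgcggaacAAGATGGCgccg
Ndufs4 (chr13:114388048-114388077, minus strand): ctggcgtttgcctacaggAAGATGGCggcg
Ndufs6 (chr13:73328438-73328467, minus strand): gggtcaagggtcaccggcAAGATGGCggcg
Ndufs7 (chr10:80249455-80249484, plus strand): tgtctgaaggccgaggccAAGATGGCggcg

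These 7 genes did not share a direction between the ages. The aged pair lay wholly below the young pair in 2 of them (Ndufa3 and Ndufs4) and wholly above in 2 (Ndufs6 and Ndufs7), and the ages overlapped in the other 3. The letters GCATGCGC, part of the palindrome that NRF-1 binds, were in 3 of the 33 promoters (9.09%), those of Ndufa6, Ndufa8 and Ndufa11, against 6.01% of tested genes. The ETS letters CCGGAAG were in 4 (12.1%, against 20.7% of tested genes), the CCAAT box in 10 (30.3% against 42.5%) and the GC box GGGCGG in 15 (45.5% against 67.1%), each searched on both strands.

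No complex I subunit passed the test between the ages. limma called 0 of the 37 higher and 0 lower, as it called 0% of the 11656 genes in either direction, and the lowest adjusted p of a subunit was 0.740. Over all genes, 773 had an unadjusted p below 0.05. At an unadjusted p below 0.05 there were 6 subunits with lower values in aged cells, beside 4.87% of all genes tested, and 1 with higher values, beside 205 of the 11656 genes. The 6 became 3 once a trend on length was removed, beside 349 of the 11656 genes in that setting. The difference was negative for 27 subunits, beside 59.5% of all genes, and positive for 10. The aged pair lay wholly below the young pair in 14 subunits (37.8%), where 26.2% of all genes tested had that order, and above in 3 (8.11%), where 11.8% of all genes had it. With a library left out fewer values have to agree, and the counts below were 24 without aged replicate 1 (45.7% of all genes), 20 without aged replicate 2 (41.4%), 20 without young replicate 2 (34.6%) and 17 without young replicate 1. Those 17 are 45.9% of the subunits, under the 47.3% of all genes in that setting. The counts above were 9 (29.03% of all genes), 8 (27.3%), 3 (32.5%) and 7 (17.8%) in the same order.

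The median difference over the subunits was -0.27 (quartiles -0.53 and 0.03), beside -0.09 (quartiles -0.36 and 0.18) over all genes tested. Relative to the mean of all genes tested, the mean log2 level of the 37 subunits was 1.03 and 0.74 in the young and 0.71 and 0.45 in the aged libraries. Young replicate 2 and aged replicate 1 were thus close to each other, and the age difference of -0.30 hardly exceeded the replicate gaps, which were 0.28 for young and 0.26 for aged libraries.

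**Figure D1:**
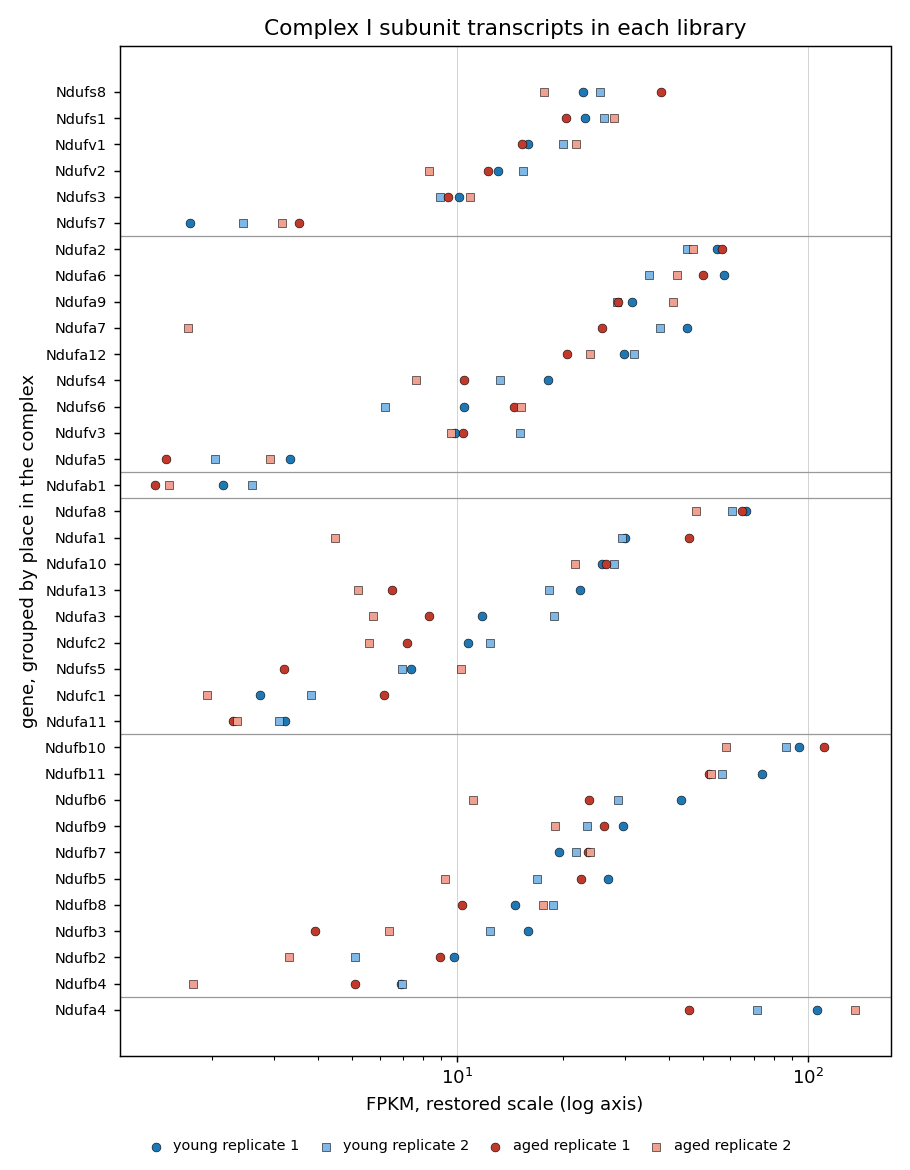
FPKM of 36 of the 37 subunit genes (rows, grouped from top to bottom as core, matrix arm, acyl carrier, membrane arm with A, C and S names, membrane arm with B names, and Ndufa4) in the 4 libraries, on a log axis. Levels run from 1.37 FPKM (Ndufab1, aged replicate 1) to 136 FPKM (Ndufa4, aged replicate 2), and Ndufa7 and Ndufa1 stand far to the left in aged replicate 2.

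The 7 nuclear core subunits, which carry the flavin and the iron-sulfur clusters, had nearly equal mean levels at both ages. Their median difference was 0.03, negative in 3 and positive in 4. Their mean level relative to all genes was 0.65 and 0.62 in the young and 0.71 and 0.63 in the aged libraries. The median moved to -0.20 without aged replicate 2, 0.18 without aged replicate 1 and -0.26 with the values as deposited. The median of all genes in these settings was -0.09, -0.13 and -0.31. Ndufv1, which binds the flavin that takes electrons from NADH, was 15.9, 19.99, 15.2 and 21.7 FPKM. Ndufs1, the largest subunit of the complex, was 23.1, 26.2, 20.4 and 28.0 FPKM. In both genes the ages overlapped, and aged replicate 2 was the highest library.

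Ndufv2, an iron-sulfur partner of Ndufv1, was 13.1, 15.4, 12.2 and 8.32 FPKM, and both aged libraries lay below both young ones. Its means were 14.2 ± 1.63 (SD, n = 2) in young and 10.3 ± 2.74 in aged cells (difference -0.45, SE 0.28; limma, adjusted p 0.761). Ndufs7, which holds the last iron-sulfur cluster before ubiquinone, went the other way at a low level, with 1.72, 2.45, 3.52 and 3.17 FPKM from 15 to 24 reads per library. Its difference was 0.50 (SE 0.35; limma, adjusted p 0.772), with both aged libraries above both young, and it was 0.02 with the values as deposited. The difference of Ndufv2 was -0.20 without aged replicate 2, -0.70 without aged replicate 1 and -1.05 with the values as deposited.

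In Ndufs3 and Ndufs8 the ages overlapped. Ndufs3, which lies between the NADH site and the ubiquinone site, was 10.1, 8.89, 9.39 and 10.9 FPKM. Ndufs8, another carrier of iron-sulfur clusters, was 22.8, 25.5, 38.0 and 17.6 FPKM, so that the aged libraries held both its highest and its lowest value.

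The 9 accessory subunits of the matrix arm had a median difference of -0.22, with both aged libraries below both young in 3 of them and above in 1, where all genes had 26.2% and 11.8%. Ndufs4, whose loss in mice gives a model of Leigh syndrome, was 18.1, 13.2, 10.4 and 7.64 FPKM. Its means were 15.7 ± 3.46 in young and 9.04 ± 1.98 in aged cells, a 1.73-fold higher mean in young (difference -0.73, SE 0.29; limma, adjusted p 0.740). Ndufs6, a zinc-binding subunit added late in assembly (chromosome 13, 73319838 to 73328542, GRCm38), had the largest positive difference of all 37. It was 10.4, 6.23, 14.5 and 15.2 FPKM, with means of 8.33 ± 2.98 in young and 14.9 ± 0.459 in aged cells (difference 0.80, SE 0.30; limma, adjusted p 0.740), and the difference was 0.47 without young replicate 2.

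Ndufa7 (chromosome 17, 33824572 to 33838317) had the largest negative difference, and it rested on 1 library. The values were 45.3, 37.9, 25.8 and 1.71 FPKM, and aged replicate 2 held 9 reads where the other libraries held 117 to 274. The counting interval for those 9 reads is 0.782 to 3.25 FPKM (exact Poisson, 95%), which covers counting error alone. The difference was -2.32 (SE 0.97; limma, adjusted p 0.740), it was -0.66 without aged replicate 2, and without aged replicate 1 it was -3.97 and passed (limma, adjusted p 0.0309, in a range of 0.0309 to 0.968 over 14 alternatives).

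The most abundant accessory genes of the matrix arm were near equal between the ages. Ndufa2, a subunit with a thioredoxin fold, was 55.1, 45.2, 56.9 and 46.9 FPKM, and Ndufa6, which docks the acyl carrier protein to the complex, was 57.5, 35.2, 49.96 and 42.2 FPKM. Ndufa12 had both aged libraries below both young, at 30.9 ± 1.53 against 22.2 ± 2.43 FPKM (difference -0.46, SE 0.22; limma, adjusted p 0.740). Differences of Ndufa5, Ndufv3 and Ndufa9, a subunit that binds a nucleotide, lay between -0.27 and 0.19, and the ages overlapped in each.

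The membrane arm held most of the subunits with lower values in aged cells. Of its 19 members, 17 had a negative difference (59.5% of all genes), 8 had both aged libraries below both young (26.2% of all genes) and 1 had them above (11.8%), and the median difference was -0.31. The mean level of the 19 relative to all genes was 1.06 and 0.77 in the young and 0.67 and 0.23 in the aged libraries. The gap of 0.44 within the aged pair was close to the difference of -0.46 between the ages. Without aged replicate 2, 12 of the 19 had a negative difference, beside 58.3% of all genes, and the median was -0.31 beside -0.09 for all genes.

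Ndufa13 (chromosome 8, 69894180 to 69902558, minus strand) had the smallest p-value of all 37. It is also known as GRIM-19, first described as a death regulator induced by interferon and retinoic acid. Its values were 22.4, 18.2, 6.51 and 5.21 FPKM from 321, 245, 70 and 65 reads, so the ages lay far apart and each pair close together. The means were 20.3 ± 2.93 in young and 5.86 ± 0.916 in aged cells, 3.46-fold higher in young (difference -1.63, SE 0.26; limma, unadjusted p 7.4e-04, adjusted p 0.740), and the difference ranged from -1.87 to -1.22 over 14 alternatives. Of the exon bases annotated for Ndufa13, 29.98% overlap those of Tssk6 on the other strand, and no source used here says whether the counting used strand. Tssk6 itself was at most 0.570 FPKM.

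Ndufa3, a small single-pass membrane subunit, was 11.7, 18.9, 8.32 and 5.74 FPKM from 20 to 71 reads (difference -1.01, SE 0.33; limma, adjusted p 0.740). Ndufc2, which takes part in early steps of membrane arm assembly, was 10.7, 12.4, 7.16 and 5.59 FPKM (difference -0.78, SE 0.27; limma, adjusted p 0.740). In both, each aged library lay below each young one. Ndufa1, an X-linked subunit needed for assembly, was 30.01, 29.4, 45.7 and 4.47 FPKM. Its aged libraries were the highest and the lowest of the 4, and the difference of -0.94 became 0.60 without aged replicate 2.

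Ndufa8, a subunit facing the intermembrane space, was the most abundant of the A, C and S names in this arm, at 66.3, 60.7, 64.7 and 47.8 FPKM. Ndufa10 and Ndufa11 had differences of -0.16 and -0.32, and in Ndufa11, at 3.23, 3.09, 2.29 and 2.36 FPKM, the ages did not overlap. Ndufc1 and Ndufs5 had wide aged pairs, with Ndufc1 at 6.17 and 1.93 FPKM and Ndufs5 at 3.19 and 10.2 FPKM in the aged libraries. Reads of Ndufs5 may be shared with BC002163, which holds 21.7% of the 50-base stretches of Ndufs5 and was at 11.0, 9.66, 6.50 and 15.2 FPKM.

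Among the 10 B subunits, which are accessory subunits of the membrane arm, Ndufb3 (chromosome 1, 58586384 to 58595964) had the smallest p-value. It was 15.9, 12.4, 3.93 and 6.40 FPKM from 97, 71, 18 and 34 reads. The means of Ndufb3 were 14.1 ± 2.46 in young and 5.16 ± 1.75 in aged cells, 2.74-fold higher in young (difference -1.32, SE 0.31; limma, adjusted p 0.740). Ndufb6 was 43.5, 28.7, 23.7 and 11.1 FPKM (difference -1.07, SE 0.40; limma, adjusted p 0.740), and 39.0% of its exon bases overlap Smim27 on the other strand. Ndufb4 was 6.90, 6.96, 5.11 and 1.76 FPKM from 4 to 18 reads (difference -0.95, SE 0.43; limma, adjusted p 0.740). In these 3 genes both aged libraries lay below both young. The reads of Ndufb4 were recovered with a length of 227 bases, where GENCODE M21 gives 1916 bases of exon, so they may be undercounted. Without aged replicate 2 the difference was -0.56 for Ndufb6 and -0.37 for Ndufb4, which was -1.52 without aged replicate 1.

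The 2 most abundant B subunits were Ndufb10 and Ndufb11. Ndufb10, which is folded through disulfide bonds in the intermembrane space, was 94.0, 86.5, 111 and 58.2 FPKM, with the aged libraries as its highest and lowest. Ndufb11, another X-linked gene, was 74.0, 56.7, 52.1 and 52.8 FPKM, with both aged libraries below both young and a gap within the young pair (0.38) wider than the difference (-0.30). That difference was -0.11 without young replicate 1 and -0.49 without young replicate 2. Ndufb7 was the 1 member of the membrane arm with both aged libraries above both young, at 20.6 ± 1.66 against 23.7 ± 0.236 FPKM. Ndufb2, Ndufb5, Ndufb8 and Ndufb9, the last of which docks an acyl carrier protein, had differences between -0.53 and -0.23, and the ages overlapped in each.

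A pair of members stand apart by function. Ndufab1, the mitochondrial acyl carrier protein, which is part of the complex and also serves fatty acid and lipoic acid synthesis, was 2.15, 2.59, 1.37 and 1.504 FPKM from 11 to 26 reads. Both aged libraries lay below both young (difference -0.46, SE 0.37; limma, adjusted p 0.796). Ndufa4, which carries a complex I name but is now counted as a subunit of cytochrome oxidase, had the highest mean over the 4 libraries, at 106, 71.6, 45.8 and 136 FPKM. Its aged libraries were the lowest and the highest, and leaving it out gave a median of -0.27 over the other 36 members.

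**Figure D2:**
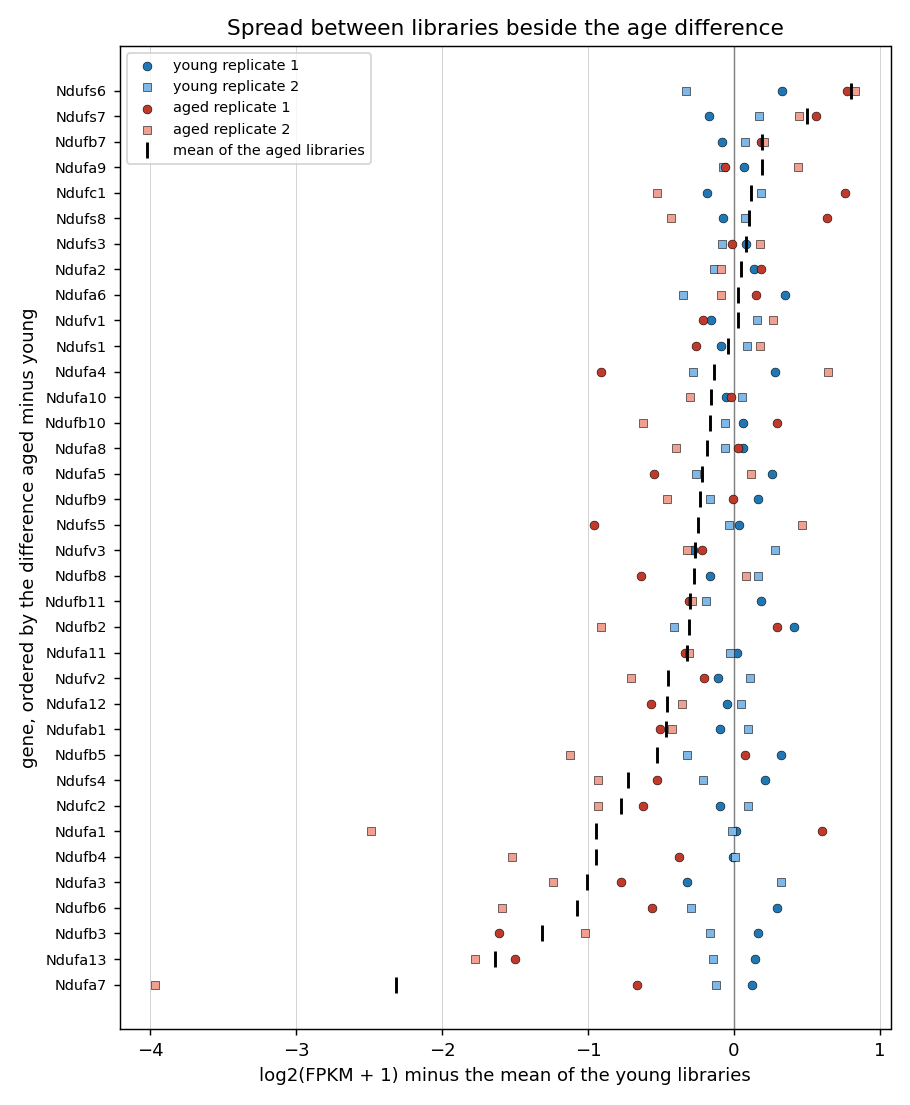
For 36 of the 37 genes (rows, ordered by the difference aged minus young), the log2(FPKM + 1) of each library minus the mean of the young libraries, with a black bar at the mean of the aged libraries. In 12 of the genes drawn the difference is larger than the gap within either age, while the aged points of Ndufa1, Ndufa4 and Ndufa7 lie more than 1 log2 unit apart.

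The aged libraries disagreed with each other more often than the young ones. A gap of more than 1 on the log2 scale between the replicates of an age occurred in 0 of the 37 subunits within the young pair, beside 6.67% of all genes tested, and in 10 (27.0%) within the aged pair, beside 13.6% of all genes. These 10 were Ndufa1, Ndufa4, Ndufa7, Ndufb2, Ndufb4, Ndufb5, Ndufb6, Ndufc1, Ndufs5 and Ndufs8, and aged replicate 2 was the lower library in 8 of them and the higher in Ndufa4 and Ndufs5. The median gap of the subunits was 0.28 within the young and 0.45 within the aged pair, beside 0.31 and 0.35 for all genes. Aged replicate 2 was the lowest of the 4 libraries for 19 subunits (51.4%), beside 35.4% of all genes.

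In 13 subunits (35.1%) the difference between the ages was larger than the gap within either pair, beside 25.7% of all genes tested. Those lower in aged cells included Ndufa3, Ndufa11, Ndufa12, Ndufa13, Ndufab1, Ndufb3, Ndufb6, Ndufc2 and Ndufs4, and those higher were Ndufb7, Ndufs6 and Ndufs7. The sign of the difference was kept under all alternatives run for 18 subunits, which hold 12 of these 13, with Ndufb7 as the exception. In these 13 the ages do not overlap, so leaving out a library or changing the pseudocount could not reverse the sign. Changes of filter, variance model or block leave the difference as it is. Only the scalings, the values as deposited and the length trend could have changed the sign.

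**Figure D3:**
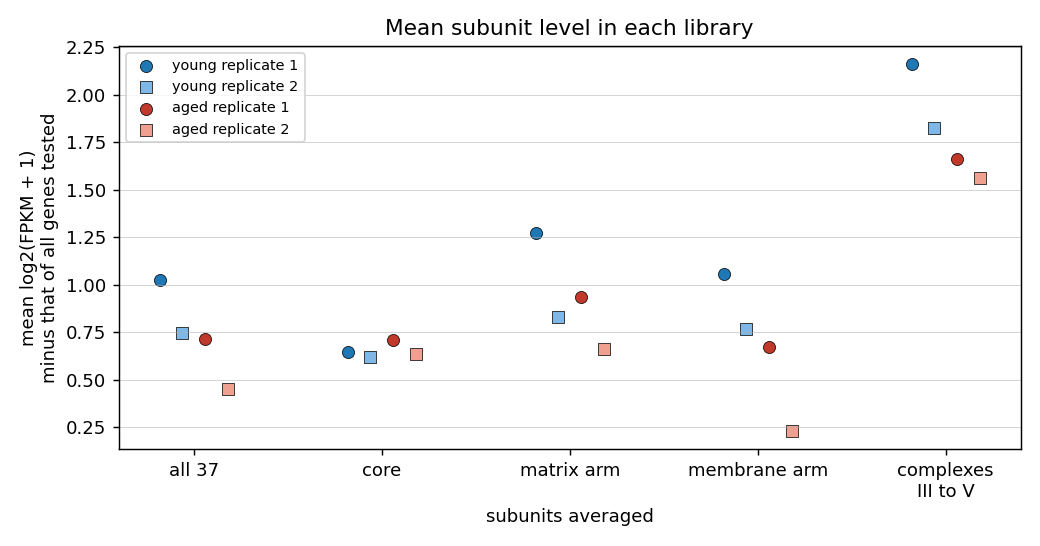
Mean log2(FPKM + 1) of the subunits in each library minus the mean of all genes tested, for all 37 genes, the 7 core, 9 matrix arm and 19 membrane arm subunits, and the subunits of complexes III, IV and V. The 4 core points lie between 0.62 and 0.71, while the membrane arm points spread from 1.06 in young replicate 1 to 0.23 in aged replicate 2.

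The subunit median was closest to that of all genes without young replicate 1 and with a length trend removed. Without young replicate 1 it was -0.20 beside -0.17 for all genes, and without young replicate 2 it was -0.35 beside 0.00. The subunit genes are short, with a median exon length of 1569 bases in GENCODE M21 beside 4239 bases for all genes tested, and with the smooth trend of the values on length removed in each library the median was -0.06 beside 0.01. Within classes of exon length, the subunit median was -0.30 beside -0.09 for all genes under 1000 bases, -0.22 beside -0.18 from 1000 to 2000 bases, -0.27 beside -0.10 from 2000 to 4000 bases and -0.31 beside -0.08 above. The lengths recovered with the reads, the smallest that suit the values, equalled the GENCODE exon length in 0 of the 37. Those of Ndufa1 and Ndufa11, 493 and 3395 bases, exceeded the GENCODE lengths of 419 and 1092 bases. For these genes the lengths behind the FPKM thus differ from those used here, and for the others they may. With the length trend removed, 12 subunits had both aged libraries below both young, beside 19.6% of all genes.

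**Figure D4:**
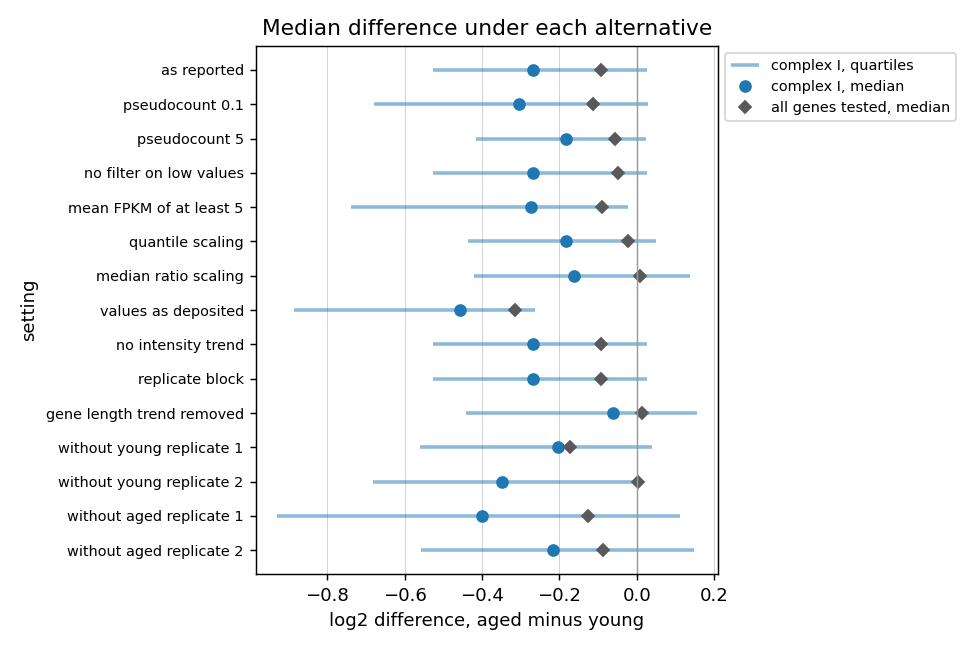
Median log2 difference aged minus young over the complex I subunits (circles, with a line from the lower to the upper quartile) and over all genes tested (diamonds), as reported and under 14 alternatives. The circle lies to the left of the diamond in each row, by 0.03 without young replicate 1 and by 0.35 without young replicate 2.

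The other respiratory complexes were read beside complex I. The subunits of complexes III, IV and V had 36 of 42 genes tested, a median difference of -0.39, and 20 with both aged libraries below both young against 2 above (26.2% and 11.8% of all genes), with 0 called. Whether the complexes differ from each other was not tested. Complex II, which feeds electrons from succinate to ubiquinone, and its assembly factors had a median of -0.21 over 8 genes, with 3 lower in both aged libraries (26.2% of all genes), and 0 called in either direction. Of these, Sdhc, a membrane anchor, was 145, 123, 99.2 and 84.3 FPKM, and Sdhaf1, an assembly factor, was 7.29, 10.2, 4.32 and 3.73 FPKM.

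Differences of both signs occurred among assembly factors of complex I, as among the subunits. Of the 14 tested, of 19 listed, 10 had a negative difference (59.5% of all genes) and 4 a positive one. Both aged libraries lay below both young in 3 and above in 1 (26.2% and 11.8% of all genes). limma called 0 of the 14, and their median was -0.25. Tmem70 was 22.0, 21.7, 17.9 and 16.1 FPKM, Dmac1 30.9, 24.2, 15.9 and 31.5 FPKM, and Tmem186 3.21, 7.55, 4.36 and 1.25 FPKM. Of the relatives with other names, Nnt, which makes NADPH from NADH in mitochondria, was 6.90, 8.77, 6.04 and 7.37 FPKM, and Ndufa4l2 was at most 1.04 FPKM.

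Genes that supply the complex were likewise not called, with 0 higher and 0 lower in each list. Citric acid cycle enzymes had a median of -0.18 over 16 genes, and their members split: Idh3b, of the NAD-linked isocitrate dehydrogenase, was 25.8, 40.3, 17.0 and 16.2 FPKM, while Ogdh, of the oxoglutarate dehydrogenase, was 52.1, 56.6, 75.5 and 76.9 FPKM. Mdh2, malate dehydrogenase, was the most abundant at 538, 334, 513 and 512 FPKM. Iron-sulfur cluster assembly had a median of -0.18 over 14 genes, with 4 below and 2 above in both aged libraries (26.2% and 11.8% of all genes). Bola3, which helps to hand on clusters, was 10.8, 6.31, 3.07 and 2.83 FPKM, Slc25a28, which imports iron, was 35.1, 21.7, 40.2 and 40.5 FPKM, and Isca1 was 86.7, 51.5, 58.7 and 58.2 FPKM.

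The other routes to ubiquinone had a median of -0.17 over 7 genes, with Etfa at 14.8, 12.4, 8.96 and 7.25 FPKM, Etfdh at 3.10, 3.41, 2.31 and 1.603 FPKM and Etfb at 22.7, 17.1, 17.1 and 12.4 FPKM, all 3 of the electron transfer from fatty acid oxidation. Ubiquinone synthesis had a median of -0.04 over 13 genes, with Coq10b at 46.7, 28.5, 28.9 and 22.9 FPKM and Pdss2 at 2.37, 3.03, 2.83 and 7.11 FPKM. Regulators of mitochondrial biogenesis had a median of -0.27 over 13 genes, with 4 below and 0 above in both aged libraries (26.2% and 11.8% of all genes). Yy1, the factor whose letters are shown above, was 60.8, 58.4, 44.8 and 48.6 FPKM (difference -0.35, SE 0.20; limma, adjusted p 0.761), and Tfb1m, which methylates mitochondrial ribosomal RNA, was 4.31, 6.06, 3.31 and 1.43 FPKM.

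Markers of other cells moved between libraries, and their part in the values above was not tested. All 12 macrophage markers were tested, and they summed to 15551 and 13399 FPKM (young) and to 14173 and 10581 FPKM (aged). Lyz2 made up most of each sum. Both aged libraries lay below both young for 3 of them, Adgre1, Fcgr1 and Itgam, and above for Csf1r. All genes tested had these orders in 26.2% and 11.8%. Itgam was 107, 106, 68.0 and 60.5 FPKM, and Csf1r was 178, 256, 278 and 262 FPKM. The 6 fibroblast markers summed to 39.4 and 191 FPKM (young) and to 87.5 and 62.7 FPKM (aged). The fibroblast sum was lowest in young replicate 1 and highest in young replicate 2. The 7 Schwann cell markers summed to between 58.4 and 77.2 FPKM, the 6 muscle markers to between 17.1 and 25.7 FPKM with Ckm at most 0.328 FPKM, the 5 endothelial markers to between 10.2 and 24.2 FPKM and the neutrophil markers to between 9.63 and 18.7 FPKM. The T and NK cell markers summed to between 8.84 and 14.8 FPKM in 3 libraries and to 107 FPKM in aged replicate 2, of which Cd3g made up 97.8 FPKM while Cd3d and Cd3e were at most 0.582 FPKM in any library. The B cell markers summed to 30.4 FPKM in aged replicate 1, of which Pax5 made up 18.7 FPKM, and to between 7.23 and 9.68 FPKM elsewhere.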

How the data were processed

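The authors deposited 1 table of FPKM values for 24028 genes. The submitters' processing notes name the build mm10 and the tools bcl2fastq, BWA 0.7.12 and DESeq2 without their roles, and no source used here names the counting program or annotation. Per the labels' protocols, reverse transcription used oligo-dT primers and the product went through multiple displacement amplification, which can copy transcripts unevenly. In the deposited FPKM, genes sorted by Entrez ID as text take 12 read totals in rotation, moved by 4 places from column to column, so that about 8.33% of a column is scaled to its own library. The rotation and the totals come from an earlier analysis of the same table. Here the rotating total was undone and replaced by that of the library, and the unaltered table served as an alternative. All 37 subunits then gave whole reads within 0.02 reads. Reads are given as the smallest whole numbers that suit the 4 values, which can undercount a gene.

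limma 3.58.1 in R 4.3.3 compared aged with young on log2(FPKM + 1), with empirical Bayes and an intensity trend, as a two-sided test of the 11656 genes that averaged at least 1 FPKM. P-values were adjusted by Benjamini-Hochberg over all of them, with a threshold of 0.05, and the script was tested on simulated data. The pseudocount of 1 understates changes of low genes. All subunits enter the fit, counts and medians, and 1 of them is not reported here by itself. Values per library are given for the other core subunits, Ndufa4, Ndufab1 and, in each other group, the 3 with the smallest p and the 2 most abundant, and some others were added after their values were seen. Of each further list, the 2 genes with the smallest p and the most abundant are named. Marker genes are given by their sums, and some also by name. The subunits and lists were chosen with earlier results of these data known, and the sequence motifs and the 20% limit for shared sequence or exon overlap after the values were seen. Lists are described by counts and medians, without a test. Coordinates, exon overlap and shared 50-base stretches come from GENCODE M21 (GRCm38), and promoter sequences from RefSeq for 33 members. The alternatives changed the pseudocount, filter, scaling, variance model, block and length trend, and left out each library in turn.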

Additional observations from a re-analysis of the deposited data

How the results depend on the processing

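The median difference of the subunits was negative under 14 alternatives of processing or library choice, from -0.46 with the values as deposited to -0.06 with the length trend removed, and -0.40 to -0.20 without a single library. The median of all genes moved from -0.09 to -0.31 with the values as deposited and to 0.01 with the length trend removed. Leaving out Ndufa13, Ndufb6 and Ndufs5, chosen after seeing the data for shared sequence or exon overlap, gave -0.25. The count of genes called was 1 (Lars2) with the replicate block and 0 to 19 without a single library (19 without aged replicate 1), and that of subunits called was 0 to 1. Subunits with both aged libraries below both young numbered 17 to 24 without a single library, where all genes had 34.6% to 47.3%. Those above numbered 0 with the values as deposited, where all genes had 4.86%. Without a single library those above numbered 3 to 9, where all genes had 17.8% to 32.5% and fewer libraries have to agree. The replicate block changed no other call reported here. The deviations of same-numbered libraries had a correlation of -0.00038 over all genes tested, so no shared deviation was seen. This does not show whether the pools were prepared in pairs.

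Of 513 subunit values under the alternatives, 473 kept direction and call, 39 changed sign, none of them called, and 1 passed (Ndufa7, above). Runs that changed only the filter, the variance model or the block returned the same difference, so direction could not change in them. They gave 37 values each without a filter, without the intensity trend and with the block, and 32 with a mean of at least 5 FPKM. With the values as deposited, the differences were -0.29 for Ndufa2, -0.11 for Ndufa6, -0.19 for Ndufb7, -0.16 for Ndufs3, -0.29 for Ndufs8 and -0.20 for Ndufv1. With the length trend removed they were 0.068 for Ndufa4, 0.013 for Ndufa5, 0.053 for Ndufa8, 0.049 for Ndufb10 and 0.040 for Ndufs1, which was also 0.0094 with quantile and 0.071 with median ratio scaling. Without a single library, the differences ranged from -2.49 to 0.60 for Ndufa1, -0.091 to 0.19 for Ndufa2, -0.91 to 0.64 for Ndufa4, -0.55 to 0.11 for Ndufa5, -0.32 to 0.38 for Ndufa6, -0.40 to 0.028 for Ndufa8, -0.059 to 0.44 for Ndufa9, -0.62 to 0.29 for Ndufb10, -0.91 to 0.29 for Ndufb2, -1.12 to 0.073 for Ndufb5, -0.64 to 0.082 for Ndufb8, -0.53 to 0.76 for Ndufc1, -0.26 to 0.18 for Ndufs1, -0.012 to 0.18 for Ndufs3, -0.96 to 0.46 for Ndufs5, -0.43 to 0.63 for Ndufs8, -0.21 to 0.27 for Ndufv1 and -0.55 to 0.013 for Ndufv3. Among named subunits that kept their sign, other values moved by over 1.5 times included the following. With the values as deposited they were -1.32 for Ndufs4, -0.73 for Ndufa12, -0.64 for Ndufb11, -0.50 for Ndufb9 and -0.29 for Ndufa10. With the length trend removed they were -0.30 for Ndufv2, -0.27 for Ndufa12, -0.10 for Ndufa11, -0.062 for Ndufb11, -0.0031 for Ndufb9 and -0.054 for Ndufa10. With a pseudocount of 5 they were 0.24 for Ndufs7, -0.53 for Ndufb4, -0.19 for Ndufab1 and -0.16 for Ndufa11. With median ratio scaling they were -0.19 for Ndufb11, -0.12 for Ndufb9 and -0.049 for Ndufa10. Ndufs7 was 0.33 without young replicate 1. Without a single library, Ndufb9 ranged from -0.46 to -0.0077 and Ndufa10 from -0.30 to -0.018. Where an age was left with 1 library, that library was taken to vary like the other age. The causes were not tested. Low read numbers, under 30 in every library by the smallest whole numbers that suit the values, limit Ndufa5, Ndufab1, Ndufb4, Ndufc1 and Ndufs7. By the same numbers, at least 1 library held under 30 reads for Ndufa1, Ndufa3, Ndufa7, Ndufb2, Ndufb3 and Ndufs5.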
